A study of Mus musculus with 5 samples.

Results

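The Wnt ligands, receptors, antagonists and feedback genes made up 49 of the 19938 genes measured in mouse mammary gland. They were chosen by gene name: every gene whose symbol begins with Wnt, Fzd, Sfrp or Dkk and a digit, together with Lrp5, Lrp6, Ror1, Ror2, Ryk, Wif1, Axin2, Lef1, Lgr5, Rnf43 and Znrf3. Array values entered only in the choice of probe set, the one with the highest mean for each symbol. By role they were 19 Wnt ligands, 10 Frizzled receptors, 5 co-receptors or other Wnt receptors, 9 secreted antagonists and 5 feedback or target genes, plus Fzd10os, a transcript from the strand opposite Fzd10. All 49 matched a RefSeq gene of the same symbol, and Wnt4 alone had more than 1 probe set.

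Total RNA of the mammary gland was profiled in 5 females of the FvB/N strain, 8 weeks old, with 1 array per mouse. The 2 control mice carried rtTA only. rtTA is a transactivator that turns on a responder gene in the presence of doxycycline, driven here by MMTV, a viral promoter active in mammary epithelium. The 3 cyclin D1 mice carried rtTA and a CCND1 transgene, and every group carried rtTA. The labels mention 7 days of doxycycline but name a "KE mutant" there, and leave unsaid whether controls were given the drug. It is therefore unclear whether the 3 cyclin D1 mice carried wild-type or mutant CCND1. The comparison asks how gland expression differs after short induction of that transgene. Cyclin D1 is the regulatory partner of CDK4 and CDK6.

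Wnt proteins are lipid-modified secreted glycoproteins. They bind Frizzled receptors together with Lrp5 or Lrp6, which halts the destruction complex of Apc, Axin, Gsk3 and casein kinase, so that beta-catenin accumulates and works with TCF and LEF factors on target genes. Other Wnt proteins signal through Ror and Ryk receptors without beta-catenin. In the mammary gland Wnt4 is known as a mediator of progesterone, Wnt signals maintain basal stem cells, and Ccnd1 itself has been described as a beta-catenin target.

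The arrays differed in range. Across all genes the SD of log2 values was 0.73 and 0.93 on the control arrays and 1.20 to 1.38 on the cyclin D1 arrays, so bright genes tended to be higher and dim genes lower in the cyclin D1 group. For that reason each difference is given as deposited and, where it matters, after the gene values of all 5 arrays were quantile-normalized again ("renormalized"). Over 1015 olfactory receptor genes, which served as a rough floor of dim signal, the array means were 2.52 and 2.38 in controls and 2.03, 1.97 and 2.23 in cyclin D1 glands. Among 11 measured milk and alveolar genes of the labelled tissue, 9 passed as higher in cyclin D1 glands, against 5.38% of all genes. Passing meant a limma adjusted p under 0.05 over all genes, and all 11 differences were positive. The list means were 6.32 and 7.21 in controls against 9.31 to 9.99. After renormalization 0 of those 11 passed, and their median difference went from 3.19 to 1.95. In bulk tissue, fewer cells of a type and less RNA per cell cannot be told apart.

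A single gene of the 49 passed the test. Lrp6 was higher in cyclin D1 glands, and 0 of the 49 were lower (limma, adjusted p under 0.05 over all genes), which is 2.04% of the genes against 6.06% of all genes tested (5.38% higher and 0.687% lower). At an unadjusted p under 0.05 there were 2 higher and 3 lower, 10.2% of the 49 against 26.3% of all genes (16.2% higher and 10.1% lower). The median log2 difference, cyclin D1 minus control, was -0.14 over the 49 genes and -0.05 over all genes, and 38 of the 49 differences were negative (77.6%, against 55.7% of all genes and 92.1% of the olfactory receptor genes). In 20 of the 49 genes the groups did not overlap, 7 with cyclin D1 above and 13 with cyclin D1 below, and among all genes 45% did not overlap (22.4% above and 22.6% below). After renormalization 0 of the 49 passed, the background being 0.361% of genes. There 7 of the 49 had an unadjusted p under 0.05 against 18.7% of genes, 14 did not overlap against 39.6%, and the median was -0.12. In 34 of the 49 genes the 95% interval of the difference lay within 1 log2 unit of 0 in both directions.

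**Figure D1:**
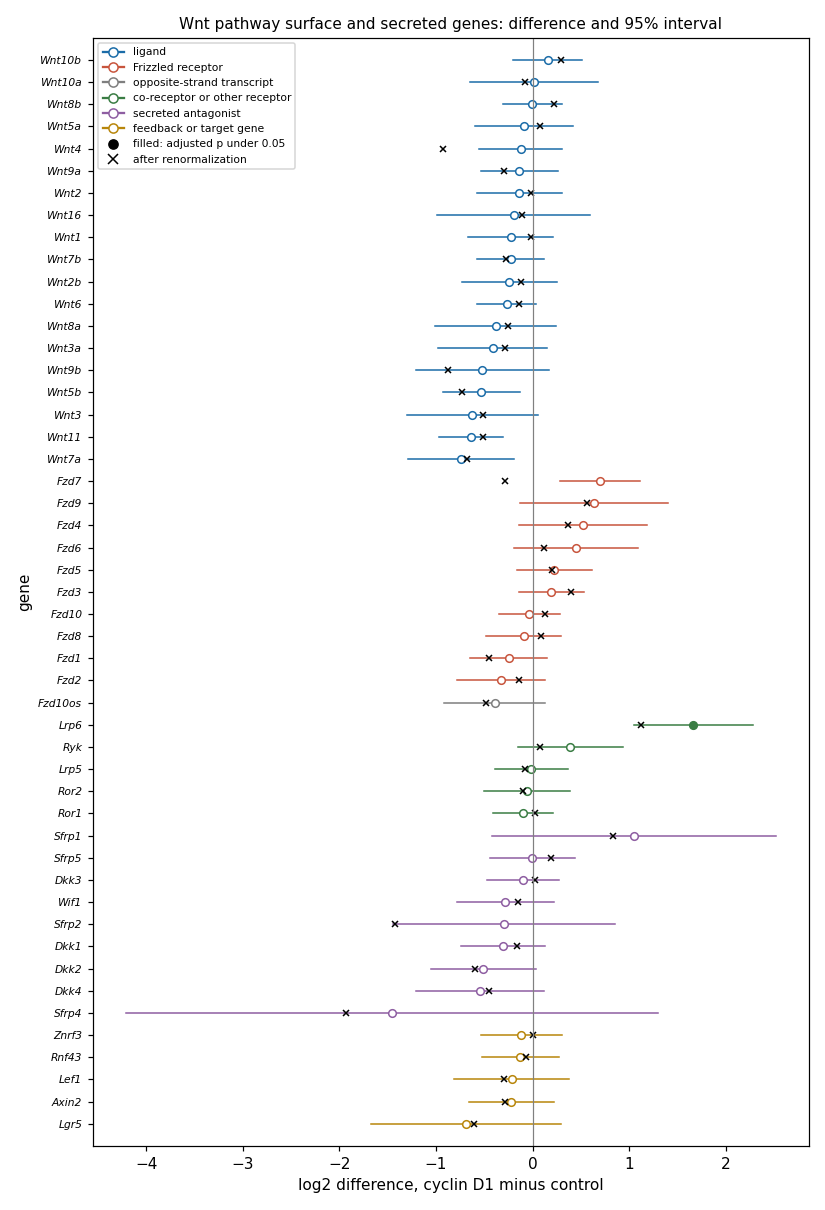
Log2 difference (x axis, cyclin D1 minus control) of each of the 49 genes (y axis), with the 95% interval from limma as a line, coloured by role; filled circles passed the test and crosses are the renormalized differences. Lrp6, at 1.66, is the only filled circle, and the ligands lie mostly left of 0.

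Lrp6 encodes the single-pass co-receptor that joins a Frizzled protein to bind Wnt ligands. Its log2 expression was 3.07 and 3.67 in controls and 5.15, 5.19 and 4.75 in cyclin D1 glands. All 3 cyclin D1 values lay above both controls, with 1.09 log2 units between the nearest values of the groups, against 0.60 between the controls. Lrp6 rose 3.17-fold, from 3.37 ± 0.43 (SD, n = 2) to 5.03 ± 0.24 (SD, n = 3), a log2 difference of 1.66 (SE 0.25, 95% interval 1.05 to 2.28, limma adjusted p = 0.0297). After renormalization the groups still did not overlap and the difference was 1.12 (SE 0.25), with an adjusted p = 0.103. In the deposited values the call was lost without control 1 (log2 difference 1.36, limma adjusted p = 0.113) and without cyclin D1 replicate 1 (1.60, 0.132), 2 (1.58, 0.107) or 3 (1.80, 0.0629), and it held without control 2 (1.96, 0.0384). In renormalized values Lrp6 passed without control 1 (0.84, limma adjusted p = 0.0423) or control 2 (1.61, 0.00377), and without any 1 cyclin D1 array it did not.

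The other receptors that pair with or replace Frizzled did not pass. Lrp5, the paralogue of Lrp6 with the same role, had 3.05 and 3.26 in controls and 3.26, 3.14 and 3.02 in cyclin D1 glands. Its difference was -0.02 (SE 0.15, 95% interval -0.39 to 0.36), so the groups overlapped throughout. Ryk, an atypical kinase-like Wnt receptor, had 3.40 and 3.34 in controls and 4.06, 3.80 and 3.43 in cyclin D1 glands. Its cyclin D1 values lay above both controls, the lowest by 0.03, and the difference was 0.39 (SE 0.22, limma adjusted p = 0.307; renormalized 0.08). Ror1, a receptor tyrosine kinase-like protein for Wnt5a, had 2.63 and 2.72 in controls and the same value, 2.57, on all 3 cyclin D1 arrays. Its difference was -0.10 (SE 0.12), and that of Ror2 was -0.06.

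The Frizzled genes encode the receptors with a cysteine-rich domain that holds the Wnt lipid. As deposited, 5 of the 10 had cyclin D1 values above both controls and 1 had them below, where 22.4% of all genes lay above and 22.6% below; 0 of the 10 passed. After renormalization 2 lay above and 1 below, 3 of 10 against 39.6% of all genes, and Fzd5, Fzd6, Fzd7 and Fzd9 overlapped. Fzd7, a receptor linked to mammary and intestinal stem cells, had 3.92 and 4.05 in controls and 4.87, 4.49 and 4.68 in cyclin D1 glands. These groups were separated by 0.44, and the difference was 0.69 (SE 0.16, limma adjusted p = 0.0732), but after renormalization it was -0.29 (SE 0.21, adjusted p = 0.489), with the opposite sign. Fzd7 therefore had no settled direction.

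Fzd9 had 2.58 and 3.40 in controls and 3.42, 3.48 and 3.96 in cyclin D1 glands, a difference of 0.63 (SE 0.30, limma adjusted p = 0.256; renormalized 0.56). Control 2 stood within 0.03 of the lowest cyclin D1 value. Fzd4, also the receptor of norrin in blood vessels, had 3.05 and 3.36 in controls against 4.12, 3.34 and 3.73, a difference of 0.52 (SE 0.26), with cyclin D1 replicate 2 below control 2. Fzd6, which acts in planar polarity, had 3.28 and 3.70 in controls against 3.70, 3.78 and 4.34, a difference of 0.45 (SE 0.26; renormalized 0.11). Across the other 6 Frizzled genes the differences ran from -0.33 (Fzd2) to 0.22 (Fzd5). Fzd2 lay at or below the olfactory receptor mean on 1 array of each group, so its size is inexact. Fzd3 had 2 control arrays at or below the olfactory receptor mean, so its difference of 0.19 has no settled direction: with values below that mean set to it, the difference was -0.21. Fzd10os stood at 3.40 and 2.85 in controls and 2.75, 2.59 and 2.85 in cyclin D1 glands, whereas Fzd10 had 2.45 on 4 of the 5 arrays.

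**Figure D2:**
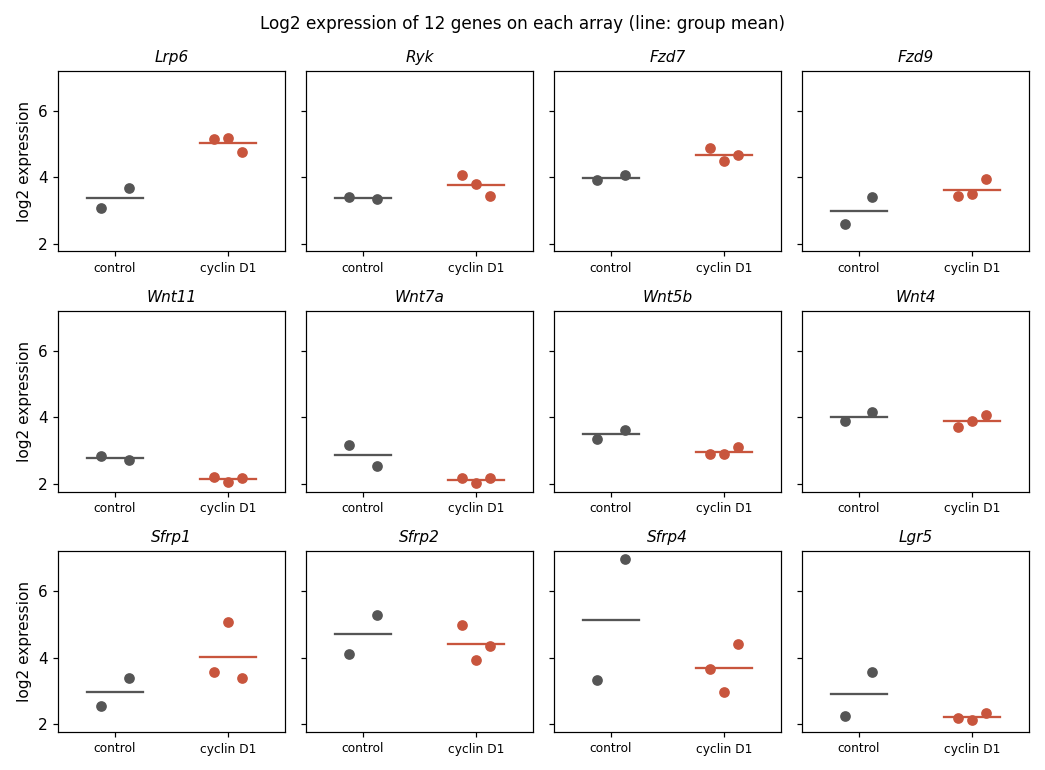
Log2 expression (y axis) of 12 genes in control and cyclin D1 glands, 1 point per array (2 control, 3 cyclin D1) and a line at the group mean. Lrp6 shows the widest gap between the groups, and Sfrp4 and Lgr5 show a single control array far from the other.

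The ligands stood low on the arrays, and 0 of 19 passed. Of the 19 differences 17 were negative, with a median of -0.23 (renormalized -0.25). In 8 genes all cyclin D1 values lay below both controls, against 22.6% of all genes and 476 of the 1015 olfactory receptor genes. In 10 of the 19, at least 1 array lay at or below the olfactory receptor mean, a family that itself had a median difference of -0.35 (renormalized -0.18). The part of the arrays' unequal range in these negative differences was not tested.

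Wnt11, a ligand of branching and cell polarity, came nearest to the threshold. It had 2.84 and 2.71 in controls and 2.20, 2.05 and 2.16 in cyclin D1 glands. The groups were 0.52 apart and the difference was -0.64 (SE 0.13, 95% interval -0.97 to -0.31, limma adjusted p = 0.0559; renormalized -0.52, adjusted p = 0.146). Cyclin D1 replicate 3 lay below the olfactory receptor mean of its array, so the size is inexact; with an intensity trend in the prior Wnt11 passed (adjusted p = 0.0464). Wnt5b, a ligand that usually signals without beta-catenin, had 3.34 and 3.63 in controls and 2.89, 2.88 and 3.10 in cyclin D1 glands. Its groups were 0.25 apart, all 5 values lay above the olfactory receptor means, and the difference was -0.53 (SE 0.16, limma adjusted p = 0.115; renormalized -0.73, adjusted p = 0.0864). Wnt7a had 3.17 and 2.55 in controls and 2.18, 2.01 and 2.17 in cyclin D1 glands, a difference of -0.74 (SE 0.22, limma adjusted p = 0.111). Its value on cyclin D1 replicate 3 lay below the olfactory receptor mean, so this size is inexact too. In Wnt7a the controls were 0.62 apart, further than the 0.36 between the groups.

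Wnt4 had 3.89 and 4.15 in controls and 3.72, 3.89 and 4.07 in cyclin D1 glands. The values of its groups overlapped as deposited, with a difference of -0.13 (SE 0.17, limma adjusted p = 0.663). After renormalization Wnt4 had a difference of -0.92 (adjusted p = 0.0772). Its second probe set had a deposited difference of -0.01, but lay below the olfactory receptor mean on both controls (2.12 and 2.20) and on cyclin D1 replicate 1 (1.97). Wnt9a had 3.39 and 3.20 in controls and 3.08, 3.06 and 3.33 in cyclin D1 glands, a difference of -0.14 (SE 0.16). Wnt1, the gene first found at MMTV insertion sites in mouse mammary tumours, lay at or below the olfactory receptor mean on all 5 arrays, so no difference is given. Wnt5a, an inhibitor of mammary branching, had 2.48 and 2.36 in controls and 2.65, 2.14 and 2.19 in cyclin D1 glands, on overlapping ranges. Of these values, 2 control and 1 cyclin D1 lay at or below the olfactory receptor mean. Wnt10b and Wnt10a were the only ligands with positive differences, 0.15 and 0.02, and neither passed. Wnt10b lay at or below the olfactory receptor mean on 1 control, and Wnt10a had the opposite sign after renormalization (-0.08). Of the ligands not yet described, Wnt8a differed by -0.38, Wnt2b by -0.24, Wnt7b by -0.23, Wnt16 by -0.20 and Wnt2 by -0.14, none past the threshold. Wnt8a on 1 array of each group and Wnt16 on 1 control lay at or below the olfactory receptor mean, so their sizes are inexact. Wnt8b differed by -0.00 and also changed sign after renormalization (0.22). It lay at or below the olfactory receptor mean on 2 control and 2 cyclin D1 arrays, so neither value gives a settled direction.

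Several ligand genes are neighbours on their chromosomes in RefSeq, which the naming rule did not use. On chromosome 11, Wnt9b and Wnt3 had differences of -0.52 (SE 0.27) and -0.62 (SE 0.27), and in both genes control 1 stood well above control 2: 3.81 against 2.96 for Wnt9b and 3.04 against 2.26 for Wnt3. Also on chromosome 11, Wnt3a and Wnt9a had -0.41 and -0.14. The sizes for Wnt3 and Wnt3a are inexact. Wnt3 lay at or below the olfactory receptor mean on 1 control and 2 cyclin D1 arrays, and Wnt3a on 1 of each group. Wnt6 and Wnt10a on chromosome 1 had -0.27 and 0.02. On chromosome 15, Wnt10b had 0.15 and its neighbour Wnt1 lay at the dim floor. None of these pairs held a gene that passed.

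To show what promoter sequence the members carry, the 250 bases before each start site in the RefSeq promoter table (GRCm38.p6) were searched for the TCF/LEF core CTTTGAT or CTTTGAA on both strands; the motifs share their first 6 letters and cannot overlap at a position. The table held 39 windows for 32 of the 49 genes, and 3 windows held a match (7.69%, against 7.48% of all 32851 windows). The 3 windows printed are all those with a match, and capitals mark it. Each of these genes had all cyclin D1 values below both controls as deposited, as had 13 of the 49 and 22.6% of all genes. A link between match and expression was not tested. Wnt11 lies at chr7:98834862-98835111 on the plus strand, with a match read as ATCAAAG whose first base is 51 bases before the start. Wnt5b lies at chr6:119449387-119449636 on the minus strand, with CTTTGAT from 71 bases before the start. Dkk1 lies at chr19:30549497-30549746 on the minus strand, with CTTTGAA from 117 bases before the start. A match is a run of letters, not a site shown to be bound.
Wnt11: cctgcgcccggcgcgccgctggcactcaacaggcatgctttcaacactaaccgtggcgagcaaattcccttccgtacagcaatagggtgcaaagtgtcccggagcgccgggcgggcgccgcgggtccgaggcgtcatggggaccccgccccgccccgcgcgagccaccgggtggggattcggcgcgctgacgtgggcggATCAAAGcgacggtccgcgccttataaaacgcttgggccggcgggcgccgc
Wnt5b: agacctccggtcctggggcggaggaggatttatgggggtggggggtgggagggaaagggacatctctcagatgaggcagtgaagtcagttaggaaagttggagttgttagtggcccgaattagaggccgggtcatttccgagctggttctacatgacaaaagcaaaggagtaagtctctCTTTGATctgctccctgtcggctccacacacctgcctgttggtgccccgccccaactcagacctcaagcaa
Dkk1: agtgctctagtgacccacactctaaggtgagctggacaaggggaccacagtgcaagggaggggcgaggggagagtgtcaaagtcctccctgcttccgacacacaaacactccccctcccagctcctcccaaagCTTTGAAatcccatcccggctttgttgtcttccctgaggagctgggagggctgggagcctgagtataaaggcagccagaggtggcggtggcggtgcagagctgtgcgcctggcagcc

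Secreted antagonists hold Wnt ligands away from receptors or, as Dkk1 does, block Lrp5 and Lrp6. None of the 9 passed; 8 of the differences were negative, with a median of -0.29 (renormalized -0.17). The Sfrp genes encode Frizzled-like decoys, and Sfrp1, Sfrp2 and Sfrp4 differed widely between mice of the same group. Sfrp4 had 3.33 and 6.97 in controls and 3.67, 2.97 and 4.42 in cyclin D1 glands. Control 2 alone stood high, the controls were 3.64 apart, and the difference of -1.46 (SE 1.095, limma adjusted p = 0.429) became 0.36 without control 2. Sfrp2 had 4.11 and 5.29 in controls and 4.97, 3.91 and 4.35 in cyclin D1 glands, a difference of -0.29 (SE 0.46; 0.30 without control 2). After renormalization Sfrp2 differed by -1.42 (adjusted p = 0.118). Sfrp1 had 2.53 and 3.39 in controls and 3.58, 5.08 and 3.37 in cyclin D1 glands. Its difference of 1.05 (SE 0.58, limma adjusted p = 0.311) rested largely on cyclin D1 replicate 2, and replicate 3 lay below control 2.

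Fibroblast markers moved between the controls in the same direction as Sfrp2 and Sfrp4, and were not alone in this. Milk and alveolar genes had list means of 6.32 on control 1 and 7.21 on control 2. Of the other marker lists, all but hormone-sensing luminal (3.29 and 3.02) and skeletal muscle (2.96 and 2.95) were also higher on control 2. That array had the wider range of the controls (SD 0.93 against 0.73). The mean log2 level of 9 measured fibroblast genes was 3.79 on control 1 and 5.08 on control 2, against 4.43 to 5.07 on the cyclin D1 arrays; 0 of the 9 passed. Lum, a collagen-binding proteoglycan of stroma, went from 3.11 on control 1 to 6.37 on control 2. The mean of 10 basal and myoepithelial genes was 3.12 and 3.38 in controls and 3.67 to 3.997 in cyclin D1 glands, with 1 of 10 higher as deposited and 0 after renormalization. The part of these cell types in the Wnt genes' values was not tested.

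Among the Dkk genes, Dkk2 had 3.42 and 2.78 in controls and 2.62, 2.62 and 2.54 in cyclin D1 glands, a difference of -0.51 (SE 0.22, limma adjusted p = 0.213). Dkk4 had 3.07 and 2.32 in controls against 1.93, 2.26 and 2.26, a difference of -0.54 (SE 0.26, limma adjusted p = 0.258). That size is inexact, as 1 array of each group lay at or below the olfactory receptor mean. Dkk1, the classic Lrp6 blocker, had 2.75 and 2.37 in controls against 2.12, 2.36 and 2.28, so control 2 and cyclin D1 replicate 2 were 0.01 apart. In these 3 of the 9 antagonists cyclin D1 lay below both controls as deposited. The same held for 22.6% of all genes and 476 of the 1015 olfactory receptor genes. After renormalization Dkk1 and Dkk4 overlapped. In each of the 3, control 1 was the higher control, and for Dkk1 control 2 lay below the olfactory receptor mean. Dkk3, Wif1 and Sfrp5 had differences of -0.10, -0.28 and 0.00 to 2 decimals, on overlapping values. Sfrp5 lay at or below the olfactory receptor mean on both controls, so its size is inexact.

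The feedback and target genes, whose RNA is commonly used to read beta-catenin activity, overlapped between the groups in 5 of 5 cases, where 45% of all genes did not overlap, and 0 passed, where 6.06% of all genes did. Axin2, a feedback scaffold of the destruction complex, had 3.05 and 3.43 in controls and 3.12, 2.87 and 3.05 in cyclin D1 glands. Its difference was -0.22 (SE 0.17, 95% interval -0.66 to 0.22, limma adjusted p = 0.447), and control 1 and cyclin D1 replicate 3 had the same value. Lef1, a TCF-family factor and target, had 3.29 and 2.94 in controls against 2.71, 3.27 and 2.72, a difference of -0.22 (SE 0.24, 95% interval -0.81 to 0.38). Lgr5, the R-spondin receptor that marks stem cells in several epithelia, had 2.24 and 3.56 in controls against 2.18, 2.12 and 2.34. Control 2 alone stood apart, which gave a difference of -0.69 (SE 0.39, limma adjusted p = 0.316). With control 1 at or below the olfactory receptor mean, that size is inexact. Rnf43 and Znrf3, ligases that remove Frizzled from the surface, differed by -0.13 (SE 0.16) and -0.12 (SE 0.17).

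Other genes of the pathway were read from lists by function, drawn up with earlier results of these data known. Of 18 genes of the destruction complex and its transducers 5 passed as higher and 0 as lower, with a median difference of 0.55. Of all genes 5.38% passed as higher and 0.687% as lower. After renormalization 0 of the 18 passed, and the median was 0.37. Csnk1a1, the casein kinase that primes beta-catenin, had 4.44 and 4.39 in controls and 7.42, 7.25 and 6.87 in cyclin D1 glands, a rise of 2.77 log2 units (SE 0.20, limma adjusted p = 0.0147; renormalized 1.17, adjusted p = 0.107). Apc, the scaffold of the complex, rose by 1.48 (SE 0.16; renormalized 0.73), and Ppp2ca, a phosphatase catalytic subunit, by 1.82 (renormalized 0.98). The kinase gene Gsk3b rose by 1.37 (renormalized 0.42) and the Axin-modifying tankyrase gene Tnks by 1.15 (renormalized 1.13). In deposited values the calls in this list numbered 8 without control 2, 3 without cyclin D1 replicate 3, and 0 without control 1, cyclin D1 replicate 1 or cyclin D1 replicate 2. In renormalized values they numbered 6 without control 1, 8 without control 2 and 0 without any 1 cyclin D1 array. Tnks on 1 control lay at or below the olfactory receptor mean, so its size is inexact. Ctnnb1, which encodes beta-catenin, had 3.81 and 2.95 in controls against 4.53, 4.83 and 4.31, a difference of 1.18 (SE 0.30, limma adjusted p = 0.0849; renormalized 0.50).

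Among 9 genes of Wnt secretion and R-spondin signalling 1 passed as higher, against 5.38% of all genes. It was Wls, the carrier that brings Wnt proteins to the surface. Wls had 3.40 and 2.57 in controls and 4.60, 4.997 and 4.41 in cyclin D1 glands. The log2 difference was 1.68 (SE 0.31, limma adjusted p = 0.0426, renormalized 1.24). In deposited values the call of Wls was lost with any 1 of the 5 arrays left out (limma adjusted p = 0.0792 without control 2), and in renormalized values it passed without control 1 or control 2 and not without any 1 cyclin D1 array. Lgr4, an R-spondin receptor, had 2.85 and 3.19 in controls and 5.02, 6.79 and 5.02 in cyclin D1 glands, a difference of 2.59 (SE 0.59) that missed the threshold (limma adjusted p = 0.0672; renormalized 2.09). Rspo1, an R-spondin ligand, differed by -0.43 and did not pass. Of 14 TCF factors and nuclear co-factors 2 passed as higher, against 5.38% of all genes. Tcf7l2, a main intestinal and epithelial TCF, rose by 1.68 (renormalized -0.01, so the sign was not kept). The chromatin remodeller gene Chd8 rose by 1.11 (renormalized 0.52). With any 1 of the 5 arrays left out, 0 genes of this list passed in deposited values; in renormalized values 2 passed without control 1, 4 without control 2 and 0 without any 1 cyclin D1 array. The co-repressor gene Ctbp1, next by p, had 2.48 and 2.87 in controls and 3.15, 3.15 and 2.97 in cyclin D1 glands, a difference of 0.41 (limma adjusted p = 0.203), with 1 control at or below the olfactory receptor mean. Of 14 planar polarity and non-canonical genes 2 passed as higher, against 5.38% of all genes. The GTPase genes Rhoa and Rac1 rose by 2.14 (renormalized 0.31) and 0.93. Rac1 had the opposite sign, -0.85, after renormalization. In deposited values the calls in that list numbered 1 without control 2 or cyclin D1 replicate 3 and 0 without any other array; in renormalized values they numbered 3 without control 2 and 0 without any other. Mapk8, which encodes a JNK kinase, differed by 0.98 (limma adjusted p = 0.101; renormalized 0.05). None of 11 other target genes passed. Procr, a surface marker of mammary stem cells, had 3.08 and 2.96 in controls and 2.59, 2.67 and 2.74 in cyclin D1 glands, a difference of -0.35 (limma adjusted p = 0.171) with cyclin D1 below both controls. The AP-1 genes Fosl1 and Jun differed by -0.22 and 0.33, and Jun changed sign after renormalization (-0.01). Myc had 6.58 and 6.32 in controls and 5.47, 6.11 and 7.18 in cyclin D1 glands. None of 10 antagonists outside the naming rule passed either; Sost, Nkd1 and Apcdd1 had differences of -0.44, -0.32 and -0.17. After renormalization of all 5 arrays 0 genes of these 6 lists passed.

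**Figure D3:**
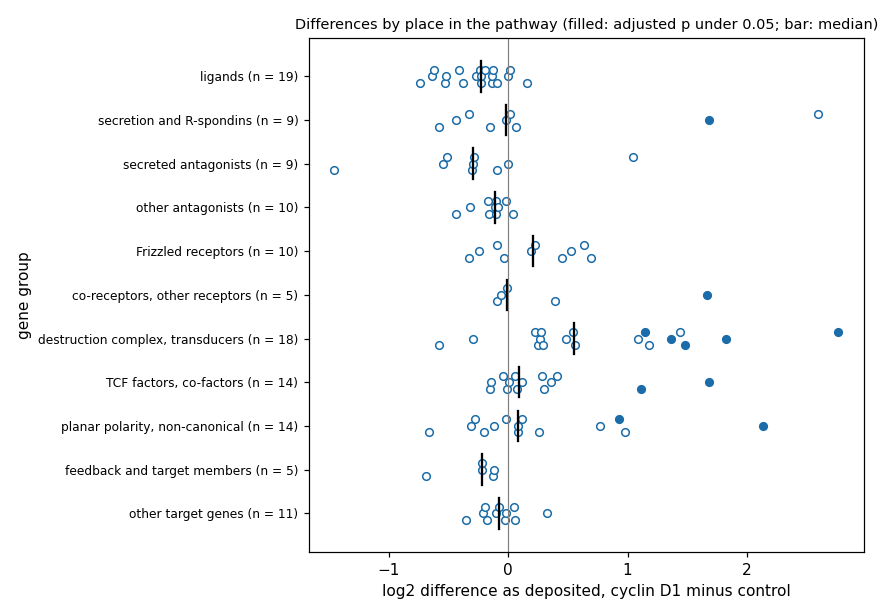
Log2 differences as deposited (x axis, cyclin D1 minus control) for 11 groups of Wnt pathway genes (y axis), 1 circle per gene, filled where limma's adjusted p was under 0.05, with a bar at each group's median. The intracellular transducers hold 5 filled circles of 18, while the ligands and antagonists hold none.

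Renormalization changed the sign of 10 of the 49 differences, beside 4206 of all 19938. The sign changed for Fzd7, Fzd8, Fzd10, Ror1, Wnt5a, Wnt8b, Wnt10a, Dkk3, Sfrp5 and Znrf3, and of these Fzd7 had the largest deposited difference, 0.69. By contrast, Wnt4, Sfrp2 and Wnt5b kept a negative sign and moved further from 0. Lrp6, Sfrp1 and Fzd9 stayed positive on both scales.

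**Figure D4:**
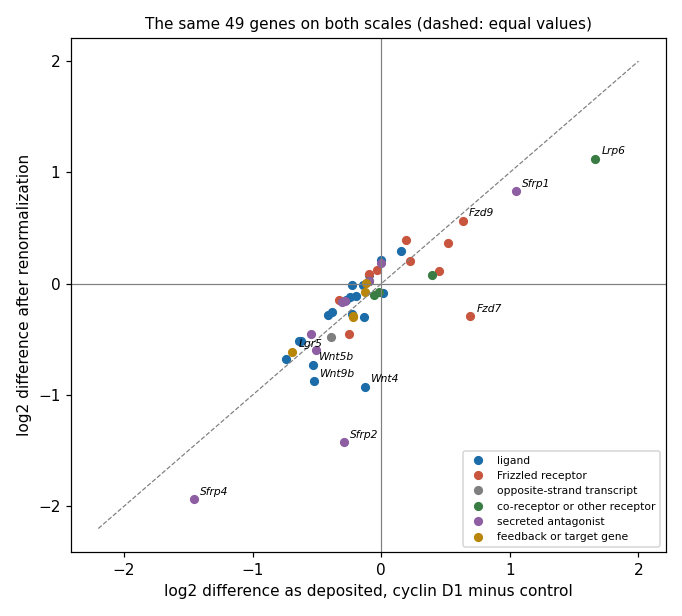
Differences of the 49 genes as deposited (x axis) and after renormalization (y axis), both in log2 units of cyclin D1 minus control, coloured by role, with a dashed line of equal values. Fzd7 lies in the lower right quadrant, and Wnt4 and Sfrp2 lie well below the line.

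Some deposited values repeated exactly. In 13 of the 49 genes at least 2 arrays carried the same value (26.5%, against 19.9% of all genes), and in 5 genes at least 3 arrays did. Fzd5 had 3.22 on all 3 cyclin D1 arrays, and Fzd10 had the same value on 4 arrays. In Fzd5, Fzd10, Ror1 and Wnt6 all values of 1 group were the same, so that group's spread was 0.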

How the data were processed

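The deposited values are log2 expression per probe set. The submitters' processing notes name Affymetrix Expression Console 1.1 and RMA, a method that background-corrects, quantile-normalizes and summarises over probes. Base 2 was inferred from the range of the values. The set of arrays normalized together was not stated. As deposited, the 5 arrays did not share a common distribution: the SD across genes ran from 0.73 (control 1) to 1.38 (cyclin D1 replicate 2). Scanner files and detection calls were not used here, so presence above background could not be called, and the number of arrays limits precision.

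Of 35556 probe sets, 21789 had 1 gene symbol in the platform annotation, 1621 several and 12146 none. The probe set with the highest mean per symbol was kept, giving 19938 genes. The test was limma 3.58.1 under R 4.3.3 (lmFit, eBayes, 3 residual and 2.39 prior degrees of freedom, two-sided, Benjamini-Hochberg over all genes, threshold 0.05); the script was checked on simulated data. Mice are separate animals per the series' design text. An exact permutation test of 2 against 3 mice cannot go below p = 0.1, so only the limma fit was used. Intervals are 95%, from limma's SE.

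The 49 genes and all lists were chosen with earlier results of these data known. Values on all arrays are given for genes that passed and, per role, for the 3 with the smallest p and the 3 with the highest mean. The rule also names the 3 genes with the smallest p of each further list; other genes named were chosen after their values were seen. Alternatives were renormalization, median centring, an intensity trend, keeping only genes at or above the median mean, averaging probe sets, array weights, a replicate block, and each array left out, with and without renormalization. A floor at the olfactory receptor mean was added after the data were seen.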

Additional observations from a re-analysis of the deposited data

How the results depend on the processing

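Lrp6 kept its direction under every setting tried, from 0.84 to 1.96 on the log2 scale with an array left out, but not its call. The counts of higher and lower genes in this section are of genes that passed at a limma adjusted p under 0.05. Of the 49 genes 0 were higher after renormalization and 0 with array weights, and 1 was lower with an intensity trend (Wnt11). With an array left out, with or without renormalization, 0 to 3 of them were higher and 0 to 11 lower; the upper ends come from renormalizing without control 2, where the lone control is assumed to vary like the other group. Over all genes, 1072 were higher and 137 lower as deposited, 51 and 21 after renormalization, 622 higher with the trend, 56 lower when only brighter genes were tested, 263 and 4 with array weights, and 0 to 2221 higher and 0 to 3154 lower with an array left out. Where 0 genes passed by limma, 4973 (without control 1), 3568 and 3491 (without cyclin D1 replicates 1 and 2) had an unadjusted p under 0.05, and 2146 to 2677 did after renormalizing without a cyclin D1 array.

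Settings were compared gene by gene for the 23 members that passed or led their role by p or mean; the 10 sign changes over all 49 are given above. Of the 23, Fzd7 (-0.29) and Ror1 (0.025) changed sign after renormalization, and Lrp5 with median centring (0.055), array weights (0.026) and the replicate block (0.045). With an array left out the ranges crossed 0 for Fzd6 (-0.12 to 0.66), Fzd7 (-0.51 to 0.79), Lgr5 (-1.53 to 0.20), Lrp5 (-0.19 to 0.091), Rnf43 (-0.18 to 0.0076), Ror1 (-0.14 to 0.085), Ryk (-0.073 to 0.56), Sfrp2 (-1.99 to 0.30), Sfrp4 (-4.28 to 0.36) and Wnt4 (-1.08 to 0.0068). The causes were not tested. The replicate numbers do not pair the mice, which were separate animals: same-numbered deviations correlated at -0.03 and 0.13 across genes. With the replicate block 10 genes in all were lower, and Lrp6 passed (1.80, limma adjusted p = 0.0364). The median over the 49 genes stayed between -0.22 and -0.03 under all settings.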
